A study of Arabidopsis thaliana with 6 samples.

Results

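Nuclear genes of Arabidopsis photosynthesis were followed across the 6 arrays of a comparison between whole plants of the mutant sni1 and of wild type. The members were taken by their annotated names, LHCB4.1, LHCB4.2, PSBY, PSAN, RCA and CYTC6A, each of which had 1 probe set among the 22746 that are not controls, giving 6 members, and all 6 passed the filter on low signal. The mutant group held 3 arrays of sni1 in the Col-0 background, whose labels give a radiation-induced mutation at AT4G18460, and the control group held 3 arrays of wild-type Col-0. Both groups were whole plants at growth stage 3.90, grown on soil at 22 °C after 3 days of cold at 4 °C, and the labels name no treatment. The labels do not say how many plants went into a sample or whether the 3 samples of a genotype were sown separately, so p-values reflect only differences among these samples, some or all of which may be technical. Transcripts were measured on the Affymetrix ATH1 array, and all signals below are MAS5 intensities on a linear scale, which summarise the short probes of a probe set in 1 value.

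In the thylakoid membranes of the chloroplast, photosystem II and photosystem I capture light with the help of antenna proteins and pass electrons along a chain that ends in reducing power and ATP for carbon fixation in the Calvin cycle. The plastid genome encodes the reaction centre cores, while the antenna proteins, many small subunits and most assembly and regulatory factors are encoded in the nucleus and imported. SNI1 is known to restrain systemic acquired resistance, a defence state that depends on salicylic acid, and the transcripts of photosynthesis proteins are known to decline in many plants when defence is active. No sequences of the members were given with the series, so none are shown.

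The arrays had been scaled to a common trimmed mean, which was between 99.959 and 99.968 on every array after the lowest and highest 2% of values were left out. Array medians were 36.7 to 40.2 in sni1 and 34.6 to 40.8 in wild type. The 3' to 5' signal ratio of the GAPDH control, a measure of RNA integrity, was 1.17 to 1.51 in sni1 and 1.12 to 1.75 in wild type, and that of an actin control was 3.29 to 7.61 in sni1 and 2.58 to 4.75 in wild type. A second actin control had ratios of 1.43 to 1.62 in sni1 and 1.51 to 1.77 in wild type. A second GAPDH control had 0.842 to 1.16 in sni1 and 0.797 to 1.16 in wild type. The locus named in the labels, AT4G18460, had a mean signal of 35.0 in sni1 and 39.4 in wild type (limma adjusted p = 0.906). In the TAIR10.1 annotation SNI1 is the neighbouring gene AT4G18470, with which no probe set was paired here, so its signal could not be used to check the genotype labels. Marker lists for other organs gave little to check the whole-plant label with. Of 14 root markers 2 had a probe set, and both were below the filter, with a summed signal of 23.0 to 43.3 in sni1 and 35.5 to 40.1 in wild type. The pollen list had 1 probe set of 3 names, with a signal of 4.79 to 11.8 in sni1 and 5.98 to 20.2 in wild type, and the flower and seed lists had 0. FMA, a transcription factor of guard cell formation and the only marker of the leaf surface with a probe set, had a mean signal of 64.0 ± 7.29 in sni1 and 51.5 ± 6.18 in wild type (SD, n = 3 each; limma adjusted p = 0.739).

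All 6 members had a lower mean signal in sni1 than in wild type, by between 7.79% for RCA and 42.2% for CYTC6A. None passed the test across all probe sets when the arrays of a genotype were treated as unpaired. With the replicate number of the sample titles as a block, CYTC6A, LHCB4.2 and PSBY passed as lower in sni1, while LHCB4.1, PSAN and RCA did not. In whole plants, fewer cells that carry chloroplasts and less RNA of a gene per cell cannot be told apart.

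LHCB4.1 and LHCB4.2 encode the minor antenna protein CP29, which sits between the main light-harvesting trimers and the core of photosystem II. LHCB4.1 had signals of 5786, 4973 and 5936 in replicates 1, 2 and 3 of sni1, against 6618, 5518 and 8742 in the same replicates of wild type. The highest array was replicate 3 of wild type, and the genotypes overlapped, because replicates 1 and 3 of sni1 lay above replicate 2 of wild type. The mean LHCB4.1 signal was 5565 ± 519 in sni1 and 6959 ± 1639 in wild type (SD, n = 3 each), and the log2 fold change was -0.30 ± 0.22 (SE) at an adjusted p of 0.818 in limma, and of 0.0956 with the replicate block. The LHCB4.1 fold change was -0.12 without wild-type replicate 3, -0.45 without wild-type replicate 2 and -0.17 without both arrays of replicate 3. Within replicate numbers, the LHCB4.1 signal of sni1 was 87.4%, 90.1% and 67.9% of that of wild type in replicates 1, 2 and 3.

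LHCB4.2 had signals of 2862, 3230 and 3377 in sni1 and of 4023, 3906 and 5268 in wild type. Every sni1 array lay below every wild-type array, and replicate 3 of wild type was again the highest. The mean LHCB4.2 signal was 3156 ± 265 in sni1 and 4399 ± 755 in wild type (SD, n = 3 each), so that the sni1 mean was 71.7% of the wild-type mean. The log2 fold change was -0.47 with a 95% interval from -0.91 to -0.030 without the block (limma adjusted p = 0.549) and from -0.68 to -0.25 with the block (adjusted p = 0.0125). Of the 7 fits with a block, LHCB4.2 passed in 6, and in the exception, with cyclic loess normalization, its adjusted p was 0.05002, just above the threshold.

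PSBY encodes a small membrane protein of photosystem II. Its signals were 3720, 3026 and 3870 in sni1 and 4766, 3920 and 5063 in wild type, and the lowest wild-type array lay only just above the highest sni1 array. Both genotypes had their lowest PSBY signal in replicate 2 and their highest in replicate 3. The sni1 signal was 78.1%, 77.2% and 76.4% of the wild-type signal in replicates 1, 2 and 3, a spread between pairs of 0.015 (SD, log2 scale). The mean was 3539 ± 451 in sni1 and 4583 ± 593 in wild type (SD, n = 3 each), and the log2 fold change was -0.37 ± 0.19 (SE) at an adjusted p of 0.695 in limma, or -0.37 ± 0.085 with the block (adjusted p = 0.0202). The call with the block was lost after quantile normalization (log2 fold change -0.21, adjusted p = 0.102), cyclic loess (-0.18, 0.178) and median centring (-0.39, 0.0592), and without both arrays of replicate 1 (-0.38, 0.0863) or of replicate 2 (-0.37, 0.123).

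PSAN encodes the subunit of photosystem I on the lumen side of the membrane that takes part in the docking of plastocyanin, the electron carrier. PSAN signals were 3075, 2796 and 3620 in sni1 and 3508, 3288 and 4949 in wild type. The genotypes overlapped through replicate 3 of sni1, which lay above replicates 1 and 2 of wild type. The mean was 3164 ± 419 in sni1 and 3915 ± 902 in wild type (SD, n = 3 each), and the log2 fold change was -0.29 ± 0.22 (SE) at an adjusted p of 0.824 in limma, and of 0.0759 with the block. Without wild-type replicate 3 the PSAN fold change was -0.11. Each sni1 array was below the wild-type array of its number, at 87.7%, 85.1% and 73.2% of it in replicates 1, 2 and 3.

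RCA encodes Rubisco activase, which removes inhibitory sugar phosphates from Rubisco, the enzyme that fixes carbon dioxide. RCA signals were 4659, 3763 and 5395 in sni1 and 4837, 4056 and 6091 in wild type. The arrays ordered by replicate number and not by genotype, with replicate 2 lowest and replicate 3 highest in both. The mean was 4606 ± 817 in sni1 and 4995 ± 1026 in wild type (SD, n = 3 each), and the log2 fold change was -0.11, with a 95% interval from -0.63 to 0.41 in limma (adjusted p = 0.954) and, with the block, from -0.30 to 0.080 (adjusted p = 0.466). The sign of the RCA difference turned to 0.059 after quantile normalization and to 0.095 after cyclic loess, and to 0.041 without wild-type replicate 3 and 0.025 without sni1 replicate 2, and it was -0.25 without wild-type replicate 2.

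CYTC6A encodes cytochrome c6A, a haem protein of the thylakoid lumen in plants and green algae that is related to the cytochrome c6 of cyanobacteria and whose role is not settled. CYTC6A signals were 48.5, 42.0 and 45.3 in sni1 and 77.3, 78.7 and 78.8 in wild type. The genotypes stood far apart, and the wild-type arrays differed from one another by little, with a coefficient of variation of 1.06% against 7.18% in sni1. The mean was 45.3 ± 3.25 in sni1 and 78.3 ± 0.827 in wild type (SD, n = 3 each), and sni1 stood at 62.7%, 53.3% and 57.5% of wild type in replicates 1, 2 and 3. The log2 fold change was -0.76 ± 0.15 (SE), the 159th lowest of 13648 probe sets, at an adjusted p of 0.103 in limma, and of 0.00750 with the block. Over single arrays left out it ran from -0.80 to -0.71, and over the other normalizations it stayed between -0.79 and -0.77. With the constant added before the log2 set at the 25th percentile of all values it was -0.66, and with no constant -0.79. The call with the block was lost without both arrays of replicate 2 (adjusted p = 0.0565).

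**Figure D1:**
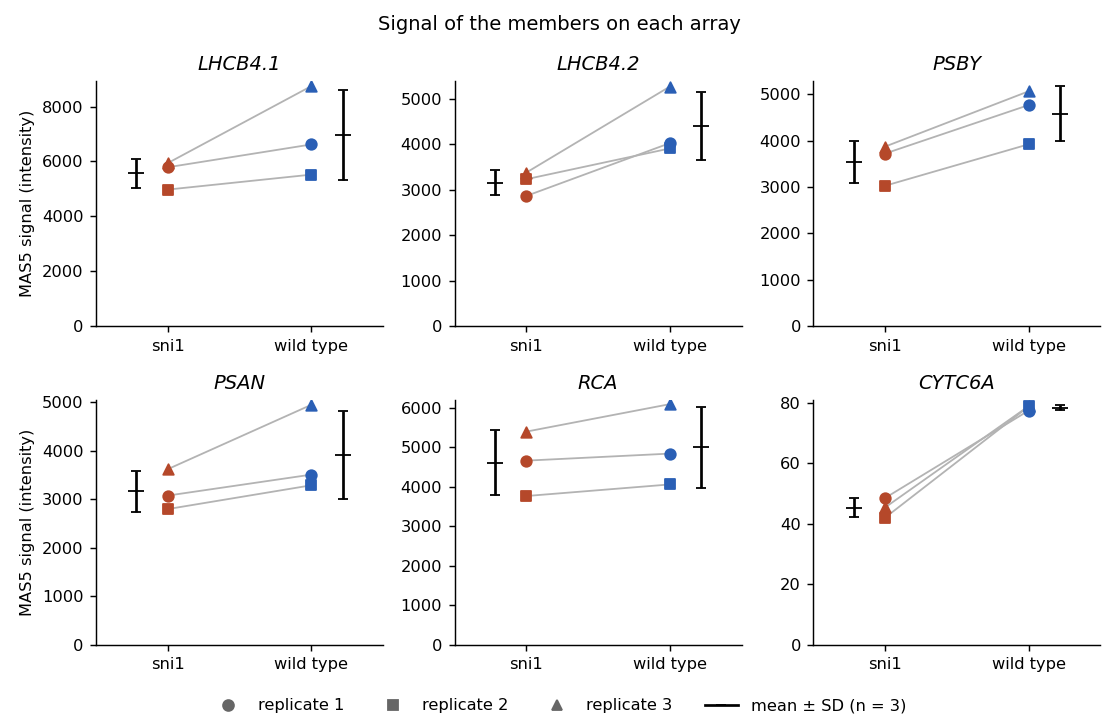
MAS5 signal (linear axis from 0) of the 6 members on each array, with sni1 at the left and wild type at the right of each panel. Symbols give the replicate number, grey lines join the arrays of 1 number, and black bars are the mean ± SD of 3 arrays. LHCB4.2, PSBY and CYTC6A do not overlap between genotypes, and all 18 lines are lower at the sni1 end.

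The counts over the members are given beside those of all 13648 probe sets tested. The members were chosen with earlier results of these data known, so their counts may reflect the choice and are no test of enrichment. Without the block, 0 of the 6 members passed in either direction, against 75 probe sets (0.55%) in all, of which 71 (0.52%) were higher and 4 (0.0293%) lower in sni1. Before adjustment, LHCB4.2 and CYTC6A were the members with a limma p under 0.05, as were 1159 of the 13648 probe sets tested (8.49%). With the block, 3 of the 6 members passed as lower and 0 as higher, against 3.91% lower and 6.15% higher over all probe sets, and 10.1% in either direction. The arrays did not overlap, with sni1 lower, for 3 of the 6 members, against 6.63% of all tested probe sets. Of the 9 other genes tested in the 6 lists of the photosynthetic apparatus, 0 passed with the block. For 1 of these 9 the arrays did not overlap, with sni1 lower. All 6 members were lower in sni1 in each of the 3 same-numbered pairs, as were 23.4% of the probe sets tested. The members' median log2 fold change was -0.34, beside -0.0051 over all probe sets tested.

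**Figure D2:**
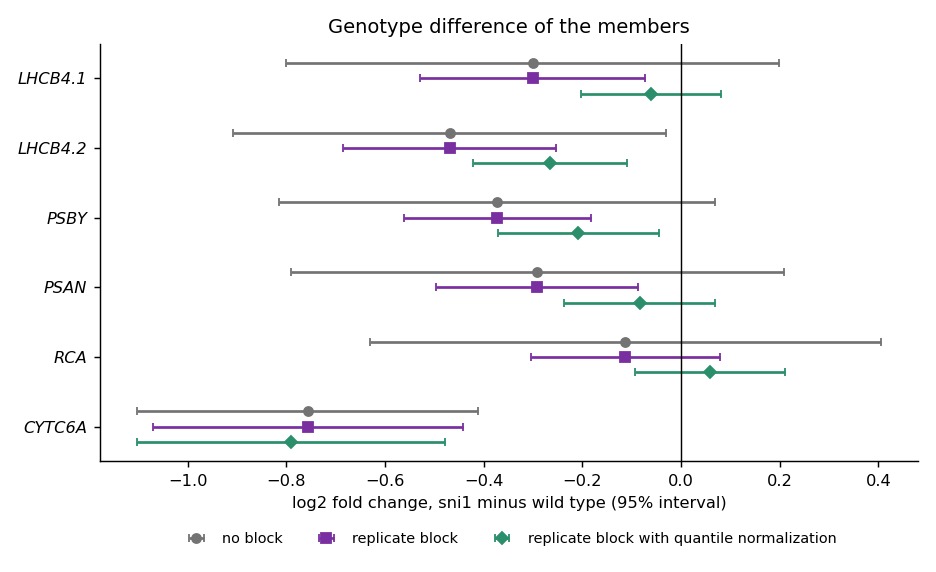
Log2 fold change of each member, sni1 minus wild type, with its 95% interval from limma in 3 fits: without a block, with the replicate block, and with the block after quantile normalization. The block narrows the intervals of the photosystem genes and RCA, quantile normalization moves the same 5 genes upwards, and CYTC6A stays between -0.79 and -0.76.

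The same members were then compared by the replicate number in the sample titles. In a limma fit of genotype plus number, RCA (adjusted p = 0.00852), PSAN (0.0186), PSBY (0.0447) and LHCB4.1 (0.0451) differed between the numbers, and LHCB4.2 (0.126) and CYTC6A (0.916) did not pass. These 4 of 6 stand beside 31.2% of all probe sets that differed between numbers. For RCA, replicate 3 stood above replicate 2 by 0.55 ± 0.11 on the log2 scale (SE; limma adjusted p = 0.00477), with signals averaged over both genotypes of 4748, 3909 and 5743 in replicates 1, 2 and 3. The same step was 0.48 ± 0.11 for PSAN (adjusted p = 0.0125), 0.46 ± 0.13 for LHCB4.1 (0.0248) and 0.36 ± 0.10 for PSBY (0.0311), while 10.4% of all probe sets passed as higher and 12.9% as lower in replicate 3 than in replicate 2. For LHCB4.2 it was 0.25 ± 0.12 (adjusted p = 0.160) and for CYTC6A 0.053 ± 0.17 (0.855). The GAPDH 3' to 5' ratio was lowest in replicate 3 of each genotype, at 1.17 in sni1 and 1.12 in wild type against 1.503 to 1.752 on the other arrays. A second GAPDH control was also lowest there, at 0.842 in sni1 and 0.797 in wild type. The actin controls went otherwise. The second was highest in replicate 3 of each genotype, at 1.62 in sni1 and 1.77 in wild type. The first was lowest there in sni1, at 3.29, but not in wild type, at 4.22 against 4.75 and 2.58 in replicates 1 and 2. The part of RNA integrity in these differences was not tested.

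The differences between numbers depended on the scaling and the variance model. After quantile normalization LHCB4.2 alone passed the F test over the numbers (limma adjusted p = 0.0158). The step from replicate 2 to replicate 3 turned to -0.26 for LHCB4.1, -0.32 for LHCB4.2, -0.24 for PSBY, -0.072 for PSAN and -0.062 for RCA. Of these steps, those of LHCB4.1 (limma adjusted p = 0.0394) and LHCB4.2 (0.0223) passed. After cyclic loess, without the intensity trend and without the filter on low signal, 0 of the 6 members passed the F test. The RCA step from replicate 2 to replicate 3 still passed without the trend (limma adjusted p = 0.0443) and without the filter (0.0483). Median centring moved the median step of all probe sets from -0.055 to 0.12. It moves every probe set of an array by the same amount. The steps of the photosystem genes and RCA relative to these medians, positive in both, could therefore not change.

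**Figure D3:**
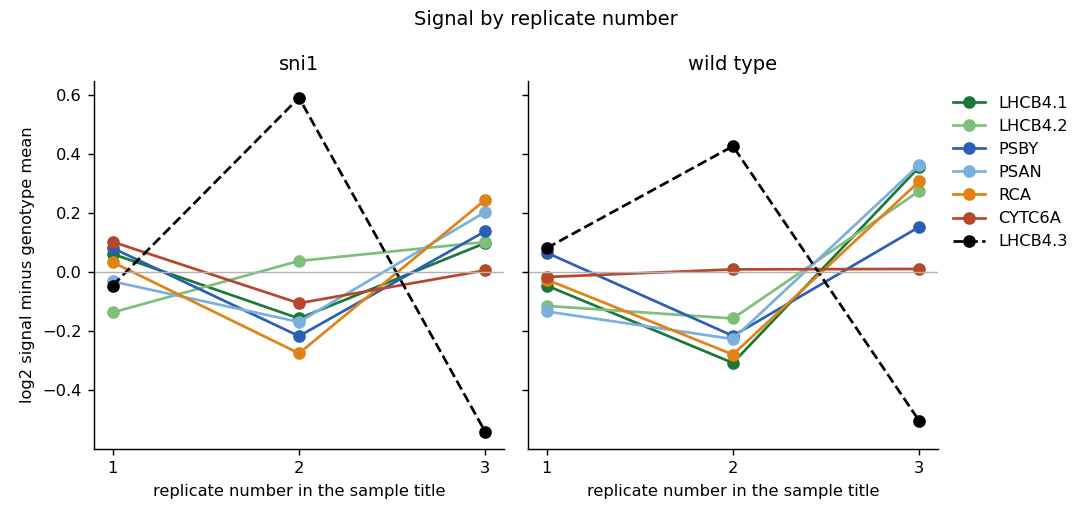
Log2 signal of the 6 members and of LHCB4.3 minus the mean of the genotype, by replicate number, for sni1 (left) and wild type (right). Lines only join the points of a gene, since the numbers have no order. RCA, PSAN, PSBY and LHCB4.1 are lowest in replicate 2 and highest in replicate 3 in both genotypes and LHCB4.3 highest in replicate 2 and lowest in replicate 3 on the deposited scale (after quantile normalization the step from replicate 2 to 3 of the 4 genes turned below 0), and CYTC6A in wild type lies close to 0.

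Of the 6 members, 5 were among the 137 brightest probe sets (the top 1% by mean signal, at 2596 and above), while CYTC6A, with a mean of 61.8, was the 9064th of 13648. Brightness is a property of the probes as well as of the transcript, so it does not rank the members by amount. On the deposited scale most of the 137 brightest probe sets were lower in sni1. They share the scaling of each array and were not tested as a class. Their median log2 fold change was -0.21, and 91.2% of them were below 0, beside a median of -0.11 in the brightest 10% and 50.8% below 0 over all. After quantile normalization the median of the brightest 1% was -0.0057 and after cyclic loess -0.011. The 99th percentile of signal showed the same order of arrays as RCA, with 1803, 1603 and 2011 in replicates 1, 2 and 3 of sni1 and 1949, 1755 and 2322 in those of wild type.

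Within these 137 probe sets, counted from the lowest log2 fold change, LHCB4.2 was the 8th, PSBY the 13th, LHCB4.1 the 26th, PSAN the 29th and RCA the 106th. With the block, 15 of the 137 passed as lower in sni1 (10.9%) and 0 as higher. All 3 pairs were lower in sni1 for 73.7% of the 137 and for all 5 of these members. The arrays did not overlap, with sni1 lower, for 5.84% of the 137, LHCB4.2 and PSBY among them. The step from replicate 2 to replicate 3 had a median of 0.56 in the 137, and the 5 members ranked from the 70th (RCA) to the 111th (LHCB4.2) from the highest. After quantile normalization LHCB4.2 kept a log2 fold change of -0.26 (adjusted p = 0.0357 with the block), and PSBY stood at -0.21, PSAN at -0.084 and LHCB4.1 at -0.060 (adjusted p from 0.102 to 0.619).

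**Figure D4:**
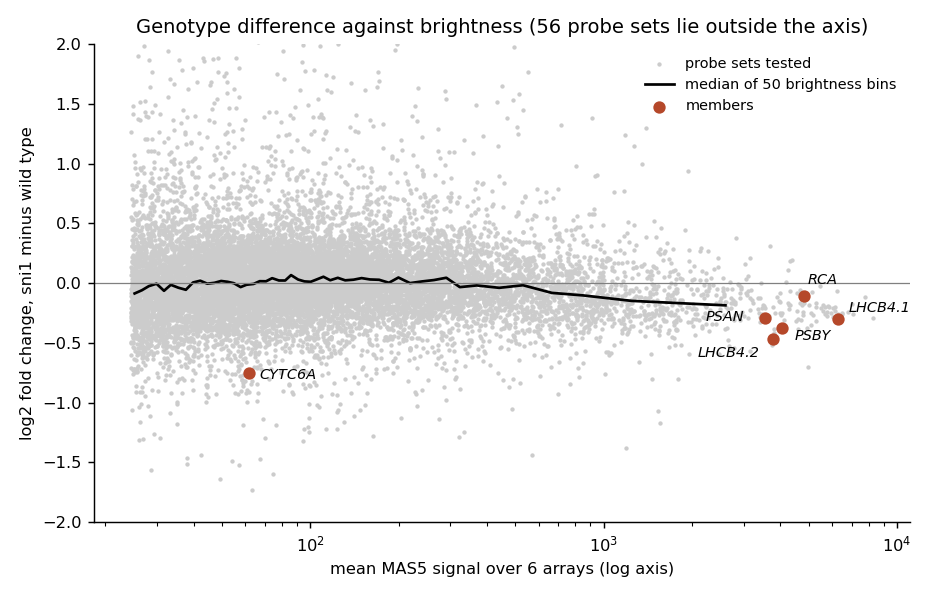
Log2 fold change, sni1 minus wild type, against mean MAS5 signal over 6 arrays (log axis) for the 13648 probe sets tested (grey), the median of 50 brightness bins (black line) and the 6 members (red). The line drops below 0 at high signal, 5 members lie at that bright end, and CYTC6A lies at -0.76 among dim probe sets.

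The other genes of the pathway were taken from lists of names, most of which were paired with no probe set by the annotation used here. Of 137 names in 10 nuclear lists, 21 had a probe set and 20 were tested. Besides the members, 14 were tested, 12 of them below 0, with a median log2 fold change of -0.18, and 0 passed without and 1 with the block. Over all probe sets tested, 50.8% were below 0, with a median of -0.0051. PSAE-1, PSBW, ATPC1, PRK and PORB lay in the brightest 1% of probe sets. Of that class 91.2% were below 0 on the deposited scale, with a median of -0.21. Across all 20, the count with the block was 4 lower and 0 higher, against 3.91% lower and 6.15% higher over all probe sets. Of these 4, LHCB4.2, PSBY and CYTC6A are the members described above, and PORB is the gene added by the lists.

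LHCB4.3, the third gene of the CP29 family, had signals of 240, 372 and 170 in sni1 and of 293, 373 and 196 in wild type. Between genotypes it did not pass the threshold, with a log2 fold change of -0.16 ± 0.33 (SE) at an adjusted p of 0.955 in limma, and of 0.369 with the block. Between numbers its difference was -1.02 for replicate 3 minus replicate 2 on the log2 scale (limma adjusted p = 0.000552), against 0.46 for LHCB4.1 and 0.25 for LHCB4.2, of which the last did not pass. The contrast in sign depended on the scaling, since after quantile normalization the same step was -0.26 for LHCB4.1 and -0.32 for LHCB4.2. The LHCB4.3 signals in replicate 2 were nearly equal in the genotypes.

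Of the photosystem II subunits, PSB27, an assembly factor, had a mean of 1989 ± 193 in sni1 and 2435 ± 225 in wild type (SD, n = 3 each), with no overlap between genotypes, and a log2 fold change of -0.29 at an adjusted p of 0.744 in limma, and of 0.0567 with the block. PSBW, a small subunit of photosystem II, stood at -0.25 (adjusted p = 0.107 with the block). PSAE-1, a stromal subunit of photosystem I that takes part in ferredoxin docking, stood at -0.21 (0.257) and was lower in sni1 in 2 of 3 pairs. Its replicate 3 was above replicate 2 by 0.92 on the log2 scale (limma adjusted p = 0.000980).

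In the electron transport and ATP synthase list, ATPC1, the gamma subunit of the chloroplast ATP synthase, stood at -0.27 (limma adjusted p = 0.0801 with the block) and ATPC2, a further gamma subunit gene, at -0.55 (0.199). PGRL1B, a protein of cyclic electron flow, stood at 0.075 (0.745 with the block). In the Calvin cycle list, SBPASE, which regenerates the carbon dioxide acceptor, and PRK, phosphoribulokinase, stood at -0.18 and -0.17 (limma adjusted p = 0.227 and 0.265 with the block), beside RCA at -0.11.

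PORB, a light-dependent enzyme of chlorophyll synthesis, passed as lower in sni1 with the block but not without it. Its signals were 2349, 1794 and 2335 in sni1 and 3614, 2228 and 3861 in wild type, and its log2 fold change was -0.55 ± 0.25 (SE) at an adjusted p of 0.627 in limma, and of 0.00652 with the block. The genotypes overlapped through replicate 2 of wild type, and each pair was lower in sni1. With a mean of 2697 PORB was the 128th brightest probe set tested, in the bright class that was mostly lower in sni1 on the deposited scale. Its values after other normalizations are not given here. CHLM, CHLI2 and HEMA2, also of chlorophyll synthesis, stood at -0.19, -0.13 and 0.098, and NOL of chlorophyll breakdown at -0.074, none past the threshold in either fit. HYH, a transcription factor of light signalling, lay below the filter, with a mean of 15.7 in sni1 and 8.15 in wild type. Lists of the photosystem I antenna and of photorespiration had 0 probe sets.

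**Figure D5:**
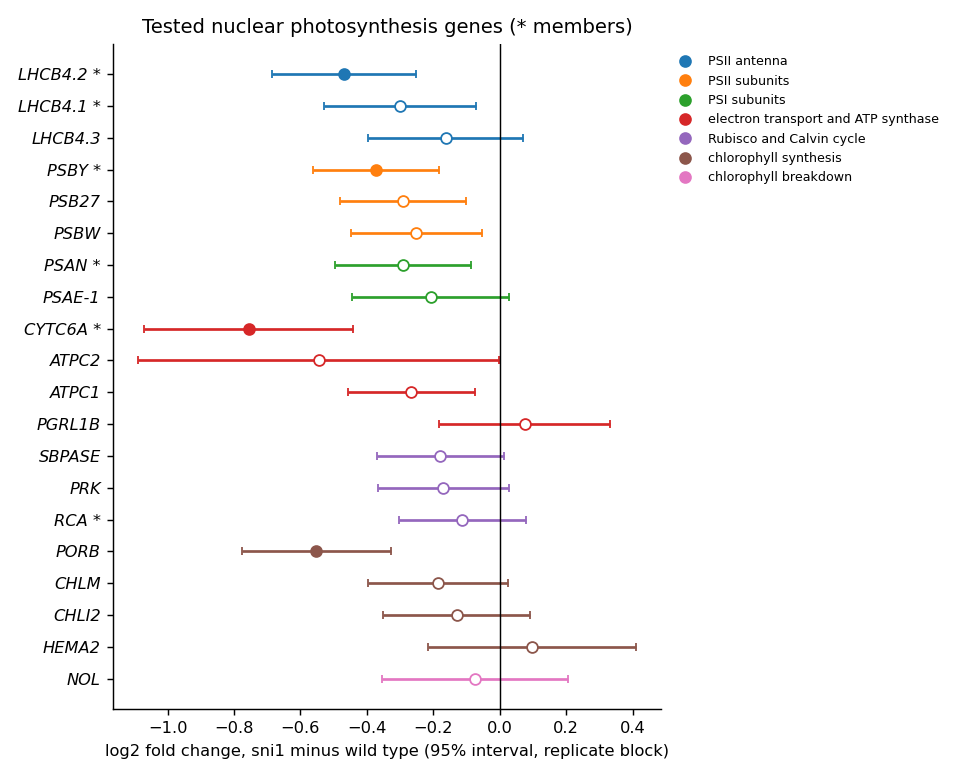
Log2 fold change, sni1 minus wild type, with 95% intervals from the fit with the replicate block, for the 20 tested genes of the nuclear lists, coloured by list. Filled points passed at an adjusted p of 0.05, and asterisks mark the 6 members. The 18 genes below 0 include all members, and LHCB4.2, PSBY, CYTC6A and PORB are filled.

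The plastid genes of the same complexes were set beside the members. Of 44 names, 43 were tested and 32 were below 0, with a median log2 fold change of -0.16. Over all probe sets tested, 50.8% were below 0 and the median was -0.0051. The brightness of the plastid probe sets was not taken into account. The arrays did not overlap, with sni1 lower, for 0 of the 43, against 6.63% of all probe sets. With the block, psbZ of photosystem II was lower (log2 fold change -0.41, limma adjusted p = 0.0130) and rbcL, the large subunit of Rubisco, higher in sni1 (0.52, adjusted p = 0.00484), against 3.91% lower and 6.15% higher over all probe sets, and none passed without it. psbZ was chosen after its values were seen. Of the other plastid genes with the smallest p, ndhH and ndhG of the NDH complex stood at -0.30 and -0.27 and atpB, the beta subunit of the ATP synthase, at -0.28 (limma adjusted p = 0.242, 0.155 and 0.162 with the block). Between numbers, 29 of the 43 differed, 19 with replicate 3 above replicate 2 and 3 with replicate 3 below it, against 31.2%, 10.4% and 12.9% of all probe sets.

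Across the 6 arrays, the 5 bright members correlated with one another at Pearson's r from 0.56 (LHCB4.2 with RCA) to 0.96 (LHCB4.1 with PSAN), and with CYTC6A at 0.30 (RCA) to 0.81 (PSBY and LHCB4.2). These values describe 6 arrays that share their scaling, and no test was made. With the genotype means removed, the range among the 5 was 0.43 to 0.95 and that with CYTC6A -0.25 to 0.53.

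The named genes whose profile was most like the mean profile of the 6 members, by Pearson's r over the 6 arrays, were AT5G22580, AT1G22330, FY, TUB1, ATKDSA2, EXPA16, AT2G28810 and AT5G02610, with r from 0.982 to 0.993. They are the 8 highest among all tested probe sets with 1 gene. Because they were picked for a profile that is lower in sni1 and shared within numbers, their genotype differences follow from the choice and are given with no test. AT5G22580 had signals of 281, 227 and 422 in sni1 and 564, 443 and 985 in wild type, with replicate 3 highest in both genotypes, and a log2 fold change of -1.06. EXPA16, an expansin that loosens cell walls, had a mean of 83.3 ± 28.2 in sni1 and 163 ± 60.1 in wild type (SD, n = 3 each). TUB1, a beta-tubulin, and FY, an RNA 3' end processing factor known from flowering time, had log2 fold changes of -0.77 and -0.61.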

How the data were processed

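The deposited values are signal intensities, 1 per probe set and array, made by the authors with MAS5 per the submitters' processing notes, whose version and settings none of the sources used here state. Of 22746 probe sets without the 64 controls, 13513 had 1 gene, 503 several and 8730 no entry in the platform annotation, and names were updated through TAIR10.1 gene identifiers. Values were transformed as log2(signal + 2.89), the added constant being the 10th percentile, which understates the fold changes of dim probe sets. Those with a mean under 24.5 (40th percentile) were left out and 13648 tested with limma 3.58.1 (lmFit, eBayes with intensity trend) in R 4.3.3, two-sided, Benjamini-Hochberg, threshold 0.05. Replicate numbers were tested by a moderated F test with genotype in the fit. Figures used matplotlib 3.10.9 in Python 3.11.15.

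Same-numbered arrays deviated together from their genotype means (correlations over probe sets 0.66, 0.58 and 0.71, other pairs -0.53 to -0.054). The deviations within a genotype sum to 0, so the negative values partly follow from the positive ones. On these values, not on the labels, the numbers were used as a block. What the arrays of a number share was not tested. The labels state no pairing, so the fit without the block is the main one.

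Members, lists and the brightness classes were chosen with earlier results of these data known. The named genes were the members, up to 4 genes of each list by smallest p (psbZ is outside this rule), and the 8 most like the member mean. Of 214 list names 203 matched a locus. Data were simulated with differences between the replicate numbers built in (13648 probe sets, 100 changed by -1 and 100 by -2 on the log2 scale). Of the changed probe sets, 3% and 75% were recovered without and 90% and 99% with the block, with 0 and 14 false calls. The log2 fold changes of the members, from -0.76 for CYTC6A to -0.11 for RCA, are smaller than both of these changes. Recovery of changes of the members' size was not tested. The block removes differences between numbers, so the higher recovery with it follows from how the data were made. Which of the fits suits the real arrays was not tested. The number of arrays limits the precision.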

Additional observations from a re-analysis of the deposited data

How the results depend on the processing

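The count of probe sets past the threshold was 75, and 137 with array weights, 1373 with the replicate block, 1442 with the block and quantile normalization, 1336 with the block and median centring and 1392 with the block and cyclic loess. With arrays or replicate numbers left out it ran from 0 to 75 without the block, and with a number left out and the block kept it was 1142, 799 and 995 without replicates 1, 2 and 3. Of the 6 members, 0 passed as lower in the main fit, 3 with the replicate block, 2 with the block and quantile normalization, 2 with the block and median centring and 1 with the block and cyclic loess, and 0 to 3 with arrays or numbers left out. The 19 fits without the block gave 0 members past the threshold, at adjusted p from 0.0574 for CYTC6A with array weights. The RCA fold change reversed to 0.059 after quantile normalization and 0.095 after cyclic loess, without and with the replicate block, and to 0.041 without wild-type replicate 3 and 0.025 without sni1 replicate 2, with a range over single arrays left out of -0.25 to 0.041. The cause was not tested.

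Members that differed between numbers by the F test were 4, and 0 without the filter, 1 after quantile normalization, 0 after cyclic loess and 0 without the intensity trend. Replicate 3 minus replicate 2 reversed after quantile normalization to -0.26 (LHCB4.1), -0.32 (LHCB4.2), -0.24 (PSBY), -0.072 (PSAN) and -0.062 (RCA), and after cyclic loess to -0.10 (LHCB4.2). The 18 same-numbered pairs lower in sni1 were 16 after quantile normalization and 14 after cyclic loess, both added after seeing the data. With numbers left out and the block kept, LHCB4.2 passed in 3 of 3 fits and PSBY in 1.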
